A study of Mus musculus with 2 samples.

Results

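Interferon-stimulated genes were described in cultured primary brain pericytes (PCs), the mural cells that wrap brain capillaries. The 9 genes *Ifit1*, *Ifit3*, *Isg15*, *Irf7*, *Irf1*, *Bst2*, *Rsad2*, *Usp18* and *Ifi35* were chosen by symbol, and each was found once among the 31053 genes listed. They were read in 9950 cells of 1 library at passage 5 (PC5) and in 4749 cells of 1 library at passage 20 (PC20), each with more than 1000 genes and under 20% of its UMIs from mitochondrial genes. A UMI, or unique molecular identifier, tags 1 captured RNA molecule. Both libraries came from brains of wild type female C57BL/6N mice 6 to 8 weeks old, with 6 mice pooled for an isolation, and the labels name no mutation and no treatment with interferon. The labels give 1 account of 6 mice for both libraries and do not say whether it was a single isolation. By the study's methods the cultures at passage 5 and 20 were separate isolations, so what belongs to the passage cannot be told apart from what belongs to the isolation. With 1 library for a passage there are no replicates, and the passages were not compared by a test.

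Interferons are secreted proteins that warn cells of a virus. Type I interferons bind a receptor that activates the kinases JAK1 and TYK2, and factors that include STAT2 and IRF9 then switch on genes that carry an interferon-stimulated response element (ISRE) near their start. Type II interferon acts through another element, the gamma-activated site (GAS). Some of the genes are also switched on without interferon, by IRF3 or NF-kB after foreign or misplaced nucleic acid is sensed. Brain mural cells, like most cells outside the immune system, have these receptors.

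The sequences below are the stretch from 160 to 41 bases before the RefSeq start of 6 of the genes, shown because they hold the letters to which these factors are known to bind. They are printed 5′ to 3′ on the strand of the gene, build GRCm38.p6. Capitals mark GAAANNGAAA or its reverse complement TTTCNNTTTC, an ISRE-type motif, in the first 5, and TTCNNNGAA, a GAS-type motif, in the last.
*Isg15*, chr4:156200859-156200978, minus strand: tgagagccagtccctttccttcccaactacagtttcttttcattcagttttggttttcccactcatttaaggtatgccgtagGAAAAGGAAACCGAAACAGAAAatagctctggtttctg
*Bst2*, chr8:71537513-71537632, minus strand: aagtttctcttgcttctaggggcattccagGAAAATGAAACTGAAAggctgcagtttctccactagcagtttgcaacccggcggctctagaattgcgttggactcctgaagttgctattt
*Rsad2*, chr12:26456493-26456612, minus strand: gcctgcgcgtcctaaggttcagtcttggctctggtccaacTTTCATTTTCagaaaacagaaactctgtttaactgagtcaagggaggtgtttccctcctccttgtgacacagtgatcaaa
*Ifit3*, chr19:34583369-34583488, plus strand: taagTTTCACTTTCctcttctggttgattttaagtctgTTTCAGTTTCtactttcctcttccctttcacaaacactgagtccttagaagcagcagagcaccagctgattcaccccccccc
*Ifit1*, chr19:34640729-34640848, plus strand: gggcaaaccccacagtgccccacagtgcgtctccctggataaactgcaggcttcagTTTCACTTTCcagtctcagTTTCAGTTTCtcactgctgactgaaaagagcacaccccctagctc
*Irf1*, chr11:53769854-53769973, plus strand: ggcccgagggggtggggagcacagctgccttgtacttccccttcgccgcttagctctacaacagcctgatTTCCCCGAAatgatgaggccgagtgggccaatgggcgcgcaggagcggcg
Promoter windows from 250 bases before to 50 after the start were listed for 8 of the 9 genes. The ISRE-type motif lay on either strand in 5 of the 8, and in 1131 of 32851 mouse promoters (3.44%). *Isg15* had 3 overlapping matches, *Bst2* had 2 that overlap, *Ifit3* and *Ifit1* had 2 apart, and *Rsad2* had 1. Of all promoters, 0.225% held 2 or more. The GAS-type motif, in 8.30% of promoters, lay 90 bases before the start of *Irf1* used above, in the *Bst2* window where it overlaps the first ISRE-type match, and in the transcribed part of the *Ifi35* window. Another start is listed for *Irf1*, with its window from 53770223 to 53770522 on chromosome 11, and that window held neither motif. Neither sequence of letters was in the window of *Irf7*. A match is a description of letters and not a measured binding site.

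The authors deposited UMI counts per gene and cell barcode without normalization. The kept cells numbered 223054273 UMIs for PC5, with a median of 21700 a cell, and 191122251 for PC20, with a median of 33424. A level is given as CPM, the UMIs of a gene summed over kept cells per 1000000 UMIs. Each molecule is counted once at its 3′ end and CPM is not divided by gene length, so levels are compared between libraries and not between genes. The log2 ratio sets the CPM of PC5 over that of PC20, so positive values are higher in PC5. Parentheses hold 95% intervals (exact Poisson, conditional binomial or Clopper-Pearson), which cover counting error only. Because PC20 cells were deeper, shares of cells and co-expression were counted on cells reduced to a random draw of 10500 UMIs each (thinned cells), a depth reached by 8847 PC5 and 4474 PC20 cells. Of the barcodes, 20 were found in both libraries, and without them 2 of the 9 genes were still higher in PC5 and the median log2 ratio was -0.64. Pericyte markers were low: *Pdgfrb* had 44.6 and 5.43 CPM in PC5 and PC20, *Rgs5* had 405 and 0 UMIs, and *Cspg4* had 1237 and 19, while *Anpep* was higher in PC20, at 1.93 and 3.00 CPM, and *Abcc9* had 1 UMI in each library, so the cells are called PCs as the labels do.

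All 9 genes were expressed in both cultures, and 7 were higher in PC20. Of the 13539 genes with a UMI in at least 1% of cells of either library, 6636 were higher in PC20. *Usp18* is counted among the 7 at a log2 ratio of -0.04 (-0.09 to 0.01), an interval that includes 0. Together the 9 genes made up 968 CPM in PC5 and 1992 CPM in PC20, or 0.0968% and 0.199% of UMIs. *Bst2* alone held 39.9% of these UMIs in PC5 and 61.7% in PC20, and without it the sums were 582 and 763 CPM. By size alone, 1 gene (*Ifit1*) was more than 2-fold higher in PC5, against 22.3% of the 13539 genes with a UMI in at least 1% of cells of either library, and 4 (*Bst2*, *Rsad2*, *Irf7* and *Isg15*) were more than 2-fold higher in PC20, against 20.0% of those genes. The median log2 ratio was -0.64 for the 9 genes and 0.03 over the 13539.

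**Figure D1:**
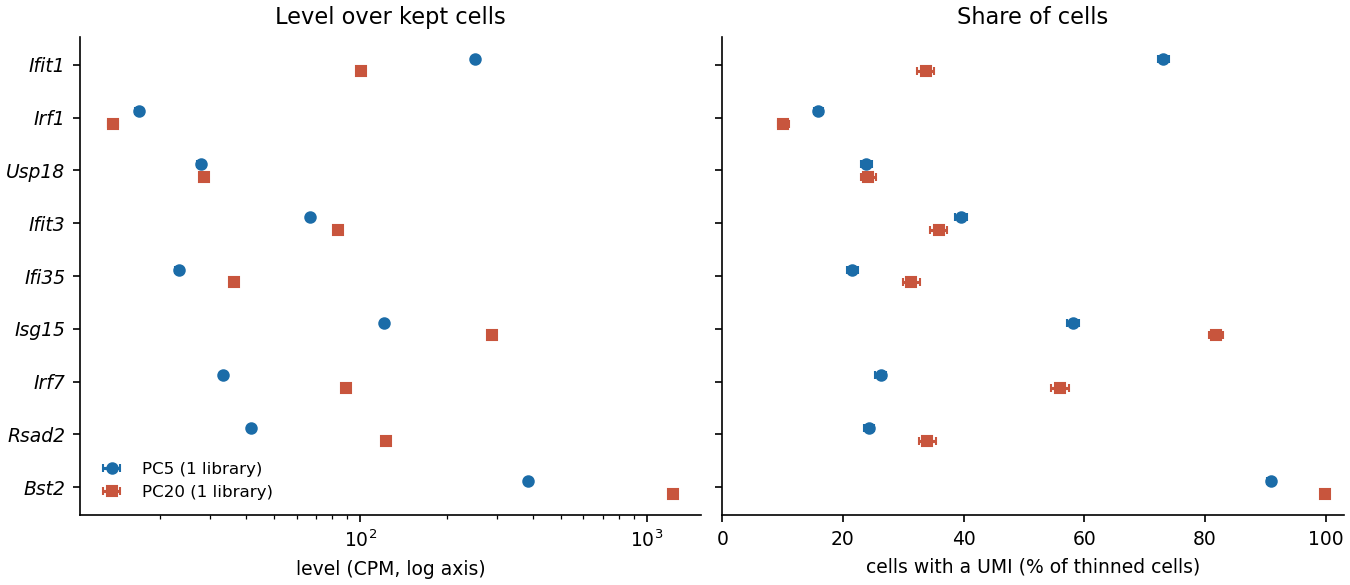
Level of the 9 genes in CPM on a log axis (left) and share of thinned cells with a UMI in % (right), with 1 point for each library, PC5 as circles and PC20 as squares; bars are 95% counting intervals, often smaller than the points. *Bst2* stands at 386 and 1229 CPM and *Ifit1*, in the reverse order, at 251 and 101 CPM.

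*Bst2* and *Rsad2*, genes of proteins that act on viruses, were among the 4 genes more than 2-fold higher in PC20. *Bst2* (ENSMUSG00000046718, chromosome 8 from 71534255 to 71537456, minus strand) encodes tetherin, which holds budding virus particles on the cell surface. Its level was 386 CPM (383 to 388) in PC5 against 1229 CPM (1224 to 1234) in PC20, which gives -1.67 (-1.68 to -1.66) as log2 ratio. It was found in 90.9% of PC5 and 99.9% of PC20 thinned cells, so in PC20 the gene was near universal. *Rsad2* (ENSMUSG00000020641, chromosome 12 from 26442746 to 26456452, minus strand) encodes viperin, an enzyme that makes a chain-terminating nucleotide. It had 41.8 CPM (40.9 to 42.6) in PC5 against 123 CPM (121 to 125) in PC20, which gives -1.56 (-1.59 to -1.52) as log2 ratio. Its share of thinned cells differed less, at 24.3% and 34.0%, than its 2.95-fold difference in level.

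*Ifit1* (ENSMUSG00000034459, chromosome 19 from 34640871 to 34650009) encodes a protein that binds viral RNA lacking the methylation of host caps. It was the 1 gene with a large difference towards the earlier passage, at 251 CPM (249 to 254) in PC5 against 101 CPM (99.2 to 102) in PC20, which gives 1.32 (1.30 to 1.35) as log2 ratio. Of thinned cells, 73.1% held an *Ifit1* UMI in PC5 and 33.7% in PC20. *Ifit3* (ENSMUSG00000074896, chromosome 19 from 34583531 to 34588731), whose protein stabilizes that of *Ifit1* in humans, lies 52139 bases before it. It had 67.0 CPM (65.9 to 68.1) in PC5 against 83.6 CPM (82.3 to 84.9) in PC20, which gives -0.32 (-0.35 to -0.29) as log2 ratio. Its share of thinned cells went the other way, at 39.5% and 35.9%. *Ifit3b*, a near copy between the pair, stood at 28.8 CPM in PC5 against 8.25 CPM in PC20, or 1.80 (1.72 to 1.88) as log2 ratio. Of the 50-base windows in the last 600 bases of the *Ifit3* transcript, 18.0% were also in the *Ifit3b* transcript. The reverse share, of *Ifit3b* windows in the *Ifit3* transcript, was 0.181%. The split of reads between the 2 genes was not tested, so the small difference of *Ifit3* is uncertain.

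The ubiquitin-like modifier was higher in PC20, and the enzyme that removes it was at close levels. *Isg15* (ENSMUSG00000035692, chromosome 4 from 156199424 to 156200818, minus strand) encodes the small protein that is joined to other proteins after interferon. It had 121 CPM (119 to 122) in PC5 against 288 CPM (285 to 290.1) in PC20, which gives -1.25 (-1.27 to -1.23) as log2 ratio, and was found in 58.2% and 81.9% of thinned cells. *Usp18* (ENSMUSG00000030107, chromosome 6 from 121245906 to 121270917) encodes the protease that cleaves ISG15 from its targets and blocks the type I receptor. Its levels were 27.8 CPM (27.1 to 28.5) in PC5 against 28.5 CPM (27.8 to 29.3) in PC20, which gives -0.04 (-0.09 to 0.01) as log2 ratio, an interval that includes 0. Its shares of thinned cells were 23.8% (23.0 to 24.7) and 24.2% (23.0 to 25.5). *Ifi35* (ENSMUSG00000010358, chromosome 11 from 101448407 to 101458698), a gene of a leucine zipper protein, had 23.3 CPM (22.7 to 23.9) in PC5 against 36.3 CPM (35.4 to 37.1) in PC20, which gives -0.64 (-0.69 to -0.59) as log2 ratio. It was found in 21.6% and 31.3% of thinned cells.

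The transcription factor genes also differed from each other. *Irf7* (ENSMUSG00000025498, chromosome 7 from 141262706 to 141266481, minus strand) encodes the factor that amplifies type I interferon production. It had 33.3 CPM (32.6 to 34.1) in PC5 against 89.4 CPM (88.0 to 90.7) in PC20, which gives -1.42 (-1.46 to -1.38) as log2 ratio, and was found in 26.2% and 56.0% of thinned cells. *Irf1* (ENSMUSG00000018899, chromosome 11 from 53770014 to 53778374) encodes a factor that responds to type II interferon and NF-kB. It was close between the libraries, at 16.9 CPM (16.4 to 17.5) in PC5 against 13.8 CPM (13.2 to 14.3) in PC20, which gives 0.30 (0.23 to 0.37) as log2 ratio, and was found in 15.9% and 10.1% of thinned cells. The annotation places *Phrf1* on the other strand over part of *Irf7*, and predicted genes on the other strand over part of *Irf1*, *Usp18* and *Ifi35*. No cell type in these cultures is known to lack the 9 genes, so the share that free RNA gives could not be read from them. Each of 10 neuronal, blood and other foreign genes had a UMI in no more than 0.113% (PC5) and 0.0224% (PC20) of thinned cells. At summed levels of 0.318 and 0.110 CPM, these 10 cannot measure free RNA of genes at the levels of the 9. Free RNA scales with the level of a gene, and its part in the shares was not tested.

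Within each culture some of the genes were spread more evenly and others were concentrated in few cells. The ratio of variance to mean of UMIs over thinned cells, 1 under counting error alone, had a median of 1.06 over 11682 genes in PC5 and 1.06 over 11202 genes in PC20. For *Rsad2* it was 6.00 and 10.5, for *Ifit1* 5.56 and 8.58, and for *Ifit3* 2.48 and 4.76. It was nearest to 1 for *Ifi35* in both libraries, at 1.08 and 1.14, with means of 0.251 and 0.398 UMIs a cell. The ratio depends on the mean, and the medians over all genes were not matched for it. The 1% of cells with the most *Rsad2* UMIs held 27.6% of them in PC5 and 19.5% in PC20, the reverse of the order of its ratio.

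The 2 genes with opposite differences in level also had different spreads. *Ifit1* had a median of 2 UMIs a thinned cell in PC5 and 0 in PC20, while its 99th percentiles were close, at 17 and 15 UMIs. The top 1% of cells held 9.67% of *Ifit1* UMIs in PC5 and 21.5% in PC20. The libraries thus differed in the typical cell more than in the cells with the most *Ifit1*. *Bst2* had a median of 3 UMIs a cell in PC5 and of 13 in PC20. Its top 1% of cells held 4.88% and 2.54% of the UMIs. At least 10 *Bst2* UMIs were in 7.99% of PC5 and 73.9% of PC20 cells. *Irf1* was more concentrated in PC20, with 13.1% of its UMIs in the top 1% of PC5 cells and 30.3% in PC20, and no PC5 cell but 3 PC20 cells had 10 or more.

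**Figure D2:**
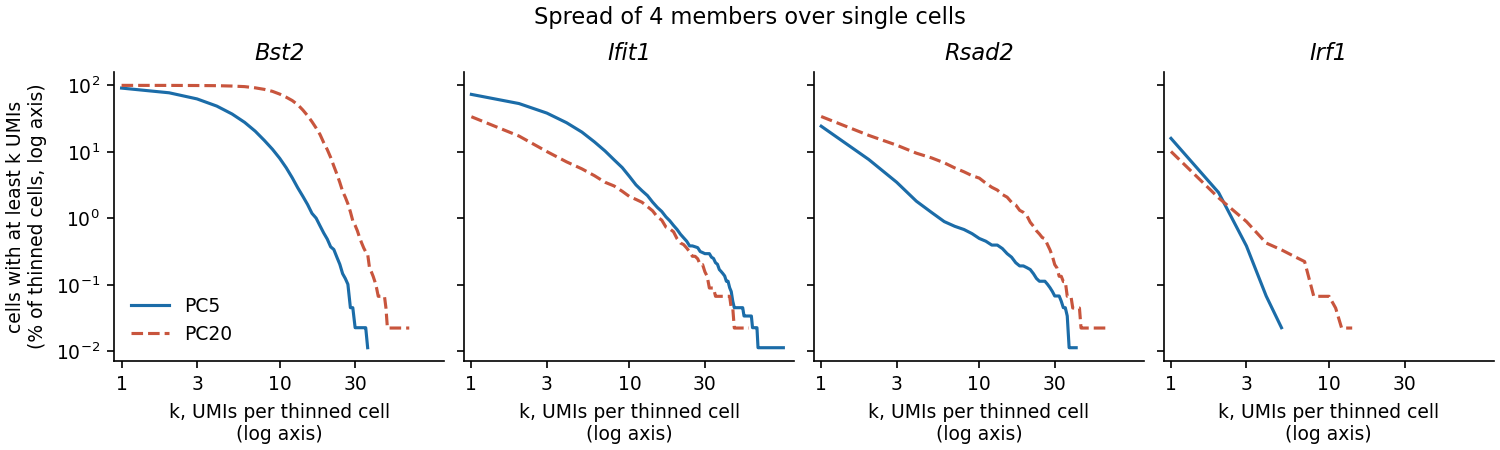
Share of thinned cells (%, log axis) with at least k UMIs of 4 of the genes, against k (log axis), for PC5 (solid) and PC20 (dashed). The *Bst2* curve lies higher in PC20 throughout, those of *Ifit1* differ at 1 UMI (73.1% and 33.7%) and come close by 15 UMIs, and those of *Rsad2* and *Irf1* reach farther to the right in PC20.

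The genes were found together in single cells. A pair was described by the log2 odds ratio of holding a UMI of one given a UMI of the other, over thinned cells of 1 library, where 0 stands for no association (intervals by Woolf's method). In PC5 all 36 pairs were above 0 and 35 had an interval above 0, with a median of 0.68 and a range from 0.12 (*Irf1* with *Ifi35*) to 1.98 (*Ifit1* with *Ifit3*). In PC20 *Bst2* was in all but 3 thinned cells and so gave no odds ratio. The other 28 pairs were above 0, 22 with an interval above 0, with a median of 0.48 and a range from 0.11 (*Irf1* with *Usp18*) to 1.94 (*Ifit1* with *Rsad2*). Over the same 28 pairs the median in PC5 was 0.56. A second draw of UMIs left 27 of the 28 above 0 in PC20 and gave medians of 0.54 in PC5 and 0.60 in PC20, so the order of the libraries was not stable. Cells share library, depth and free RNA, so these are descriptions over 8847 and 4474 cells, with no test. The share of pairs above 0 among other expressed genes was not counted. The counts of pairs above 0 are thus not read as particular to these genes.

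Which genes went together differed in value between the cultures. In PC5, *Ifit1* and *Ifit3* were found together in 3056 cells, and *Isg15* with *Bst2* in 4880, at log2 odds ratios of 1.98 (1.81 to 2.14) and 1.63 (1.41 to 1.85). In PC20, *Ifit1*, *Ifit3*, *Rsad2* and *Isg15* had log2 odds ratios from 1.15 (*Isg15* with *Rsad2*) to 1.94 (1.75 to 2.13, *Ifit1* with *Rsad2*) with each other. The same pairs in PC5 ran from 0.71 (*Isg15* with *Rsad2*) to 1.98, each with an interval above 0, and *Ifit1* with *Rsad2* was at 1.57 (1.37 to 1.76). The grouping of these genes was thus not particular to PC20. *Irf1* stood apart in PC5, with a highest value of 0.43 with any other gene. In PC20 the highest values of *Irf1* were 1.22 with *Ifit1*, 1.14 with *Rsad2* and 1.10 with *Ifit3*, each with an interval above 0. With *Isg15*, *Ifi35*, *Irf7* and *Usp18* it had 0.38, 0.28, 0.18 and 0.11, each with an interval that includes 0. The median of *Irf1* was 0.30 over 8 pairs in PC5 and 0.38 over 7 pairs in PC20. *Irf7* had a median of 0.58 in PC5 and 0.29 in PC20 over its 7 pairs without *Bst2*. Whether these values differ between passages was not tested.

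**Figure D3:**
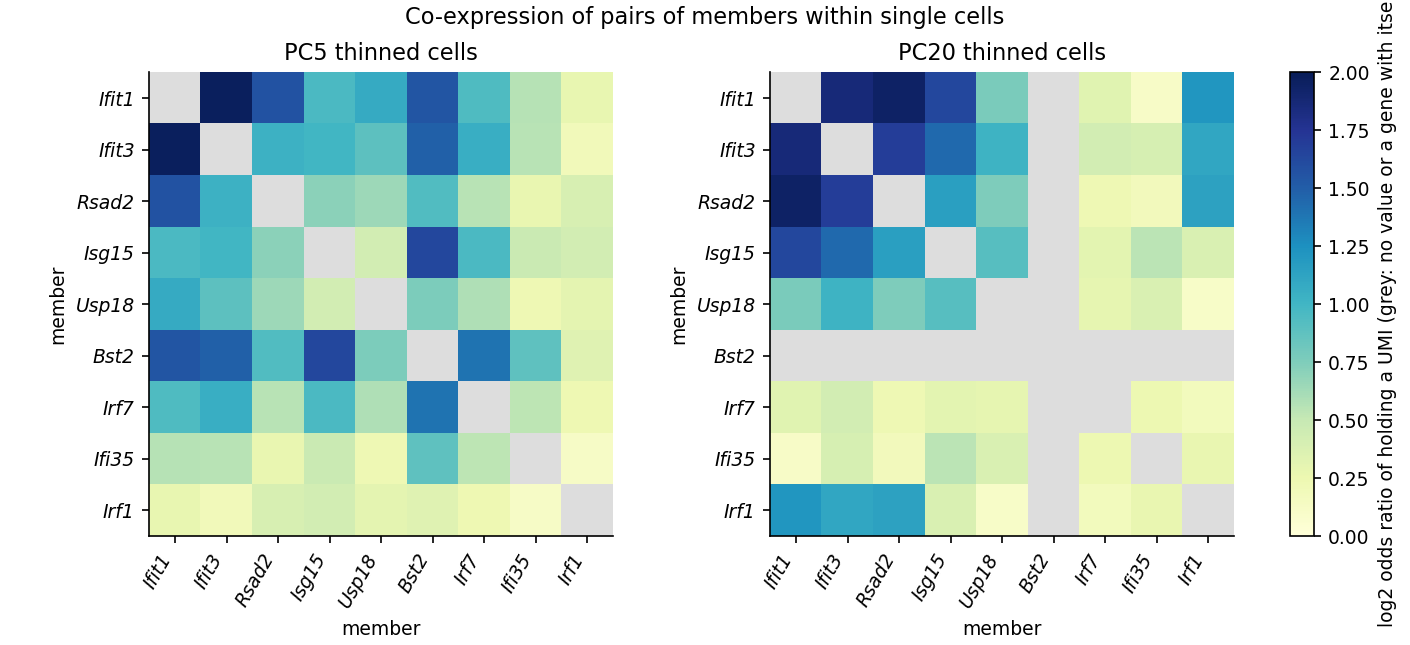
Log2 odds ratio of holding a UMI of both genes for each pair, over thinned PC5 cells (left) and PC20 cells (right), darker for higher. In PC20 *Ifit1*, *Ifit3*, *Rsad2* and *Isg15* form a dark block to which *Irf1* is joined at 1.10 to 1.22 with the first 3, and *Bst2* is grey because all but 3 cells held it. In PC5 the pairs of the same block range from 0.71 to 1.98.

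Most cells held several of the 9 genes. The median thinned cell held 4 of them in both libraries, and at least 3 were in 76.3% (75.4 to 77.1) of PC5 and 82.6% (81.5 to 83.7) of PC20 cells. At least 6 were in 15.3% and 19.3%, and all 9 in 12 PC5 and 22 PC20 cells. None of the 9 was found in 175 PC5 cells and in 0 of 4474 PC20 cells, which allows a share of up to 0.0671%. All these counts include *Bst2*, which alone was in 90.9% of PC5 and 99.9% of PC20 thinned cells. They were not made without it, so they are not read as a difference across the set.

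Genes with the most similar pattern were found by Pearson's r over thinned cells between log2(UMIs + 1) of a gene and log2(1 + the summed UMIs of the 9), a member being left out of its own sum. Against the sum of the other 8, *Ifit3* ranked first of all genes in both libraries, with r of 0.462 in PC5 and 0.474 in PC20. *Irf1* ranked 327 in PC5 (r of 0.086) and 44 in PC20 (r of 0.177), and *Bst2* ranked 4 and 31. *Bst2* held 39.9% of the UMIs of the 9 in PC5 and 61.7% in PC20 over kept cells. The sums for all other genes include it and its own does not, so its ranks are not directly comparable with theirs. The 99th percentile over all genes was 0.139 and 0.0947, above which lay 8 of the 9 in PC5 and 9 in PC20. In PC5 the 10 other genes with the highest r were *Ifitm3*, *Ifit3b*, *Rnf213*, *Oasl2*, *Ifi44*, *Iigp1*, *Trim30a*, *B2m*, *Irgm1* and *Ifi204*, from 0.434 to 0.290. In PC20 they were *Cxcl10*, *Oasl1*, *Oasl2*, *Ifit3b*, *Apol9a*, *Ifih1*, *Rtp4*, *Ifitm3*, *Cmpk2* and *Gbp7*, from 0.471 to 0.265. *Ifitm3*, *Ifit3b* and *Oasl2* were in both.

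*Cxcl10*, the gene of a chemokine that draws T cells, led that list in PC20, and cells were compared by whether they held its UMI. This gene, like *Nfkbia*, *Mki67* and *Top2a* below, was chosen after the data were seen. *Cxcl10* was chosen for its r with the summed UMIs of the 9 in PC20. Higher levels of the 9 in cells that hold it were thus partly fixed in advance. *Cxcl10* UMIs were in 175 PC5 thinned cells (1.98%) and in 499 PC20 cells (11.2%). In PC20 these cells held 57.2% of *Rsad2*, 52.5% of *Ifit1*, 44.3% of *Irf1* and 35.7% of *Ifit3* UMIs, but 14.4% of *Irf7*, 13.0% of *Ifi35* and 11.8% of *Bst2* UMIs. *Rsad2* had 658 CPM in PC20 cells with *Cxcl10* and 61.9 CPM in those without, a 10.6-fold difference, and 572 and 33.5 CPM in PC5, a 17.1-fold difference. *Ifit1* had 468 and 53.2 CPM in PC20, and 1166 and 246 CPM in PC5. *Bst2* hardly differed in PC20, at 1322 and 1237 CPM, and differed 1.48-fold in PC5.

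Several differences between the libraries had another size without the cells that held *Cxcl10*. Such cells were 2.68% of PC5 and 18.4% of PC20 cells before thinning, so a larger part of PC20 was left out. Since *Cxcl10* was chosen for its r with the 9, these moves were also partly fixed in advance. Among cells with no *Cxcl10* UMI before thinning, the log2 ratio of PC5 over PC20 was 2.36 for *Ifit1* and 1.01 for *Irf1*, both farther from 0 than over all cells. It was -0.59 for *Rsad2*, nearer to 0 than -1.56 and no longer past 2-fold, and 0.11 for *Ifit3*, with the sign reversed. *Bst2* and *Irf7* stayed at -1.68 and -1.40.

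Cells with and without a UMI of *Mki67* or *Top2a*, genes of dividing cells, were also compared. Such cells were 35.6% of PC5 and 57.6% of PC20 thinned cells. In PC5 all 9 genes were lower in them, from a log2 ratio of -0.72 for *Ifit3* (51.4 and 84.7 CPM) to -0.06 (-0.21 to 0.09) for *Irf1*, whose interval includes 0. In PC20 the genes were divided: *Ifit1* had 105 CPM in these cells and 91.5 CPM in the others, a log2 ratio of 0.20 (0.12 to 0.29), and *Rsad2* had 141 and 112 CPM, or 0.33 (0.26 to 0.41) on the log2 scale. In PC5 the same ratios were -0.60 (-0.64 to -0.56) for *Ifit1* and -0.43 (-0.53 to -0.33) for *Rsad2*. Among cells with no such UMI before thinning, the log2 ratio of PC5 over PC20 was 1.88 for *Ifit1* and -1.01 for *Rsad2*. How many of all genes were lower in cells with *Mki67* or *Top2a* was not counted. The lower levels of all 9 in PC5 are thus not read as particular to them.

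**Figure D4:**
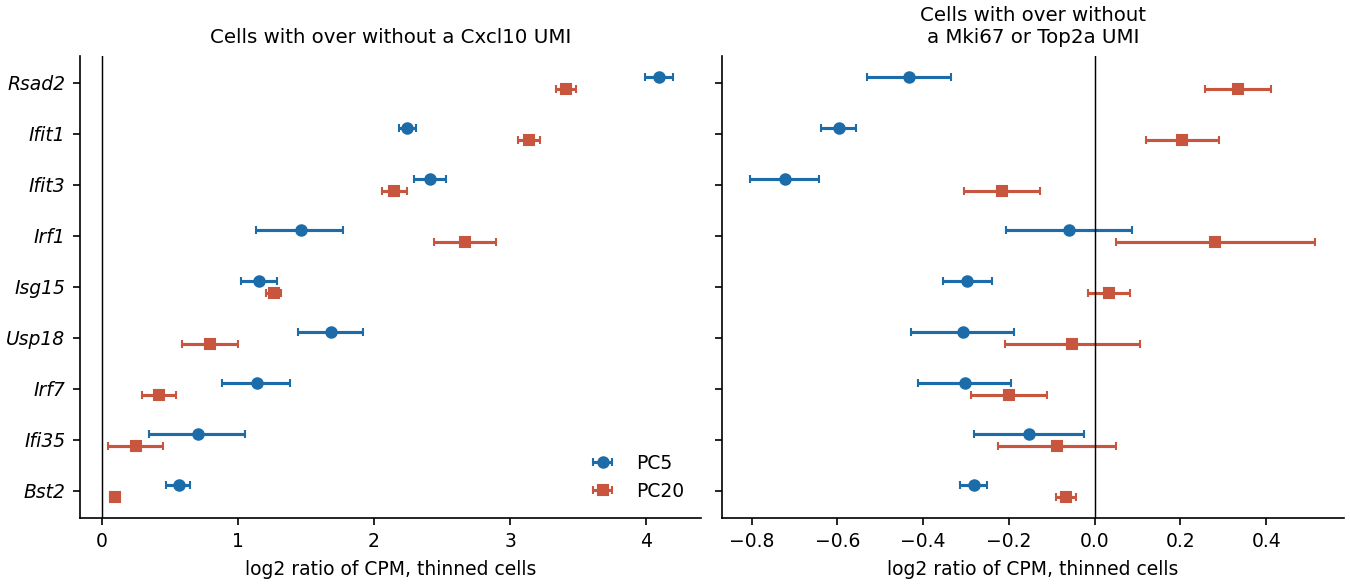
Log2 ratio of CPM in thinned cells with over cells without a *Cxcl10* UMI (left) and a *Mki67* or *Top2a* UMI (right) for each gene, PC5 as circles and PC20 as squares, with 95% counting intervals. All values on the left are above 0, from 0.10 for *Bst2* in PC20 to 4.10 for *Rsad2* in PC5, and on the right *Ifit1* and *Rsad2* lie on opposite sides of 0 in the libraries. *Cxcl10* was chosen for its r with the sum of the 9, so values above 0 on the left were partly fixed in advance.

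*Irf1* was set against *Nfkbia*, the NF-kB inhibitor that NF-kB itself switches on. In PC20, cells with an *Nfkbia* UMI (35.4% of thinned cells) had 24.3 CPM of *Irf1* and the others 8.24 CPM, a 2.94-fold difference (log2 ratio of 1.56, 1.33 to 1.79). The cells with *Nfkbia* held 61.8% of *Irf1* UMIs. An *Irf1* UMI was in 15.1% of cells with and 7.41% of cells without an *Nfkbia* UMI. The ratio of variance to mean of *Irf1* over PC20 cells was 2.49, so this interval is too narrow for differences between cells. Whether NF-kB has a part in the difference was not tested. In PC5 (19.6% of cells) the levels were 18.0 and 18.0 CPM, or 0.00 (-0.18 to 0.18) on the log2 scale. The next after *Irf1* in PC20 were *Rsad2*, 1.43-fold higher, and *Ifit1*, at 119 and 88.7 CPM, while *Bst2* was at 1207 and 1269 CPM.

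Interferon messages themselves were rare. Of 10 interferon genes, 8 had no UMI in either library, *Ifna1*, *Ifna2* and *Ifng* among them, and *Ifne* had 3 UMIs, all in PC20. A count of 0 allows a share of up to 0.0302% of PC5 and 0.0632% of PC20 cells with a UMI. *Ifnb1*, the gene of interferon beta, had 21 UMIs in 5 PC5 cells, or 0.0503% (0.0163 to 0.117), and 22 UMIs in 7 PC20 cells, or 0.147% (0.0593 to 0.304). The UMIs were uneven, from 1 to 10 a cell in PC5 and from 1 to 14 in PC20. These shares are no higher than the highest of the genes of other lineages, 0.191% and 0.147% of unthinned cells, so the shares alone are not read as expression.

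The few cells with *Ifnb1* were high in most of the 9 genes. The 9 made up 0.0930% to 1.43% of the UMIs of the PC5 cells with *Ifnb1*, with a median of 1.10%, against a median of 0.0838% over all kept cells. In PC20 the range was 0.362% to 1.42%, with a median of 0.672%, against 0.175%. Of the 5 PC5 cells 4 were at or above the 95th percentile of this share, as were 6 of the 7 PC20 cells. The exceptions were the PC5 cell at percentile 56.5, with 1 *Ifnb1* UMI and no *Cxcl10* UMI, and a PC20 cell at 93.7. The PC5 cells had from 10 to 287 *Ifit1* UMIs, against a median of 3 in the other cells, and from 0 to 79 *Rsad2* UMIs, against 0. In PC20 *Ifit1* ranged from 18 to 106 UMIs, against 1, and *Irf1* from 4 to 34, against 0. Summed over these cells, *Rsad2* was 38.9-fold higher in PC5 and 14.0-fold higher in PC20 than in the others, *Irf1* 3.79-fold and 20.8-fold, and *Bst2* 2.20-fold and 1.10-fold, the last with an interval that includes no difference. The PC5 value of *Irf1* rests on few UMIs, from 0 to 5 a cell. On the log2 scale *Irf1* was at 1.92 (0.79 to 2.85) in PC5 and 4.38 (4.06 to 4.68) in PC20. The libraries were not compared by a test on so few cells. *Cxcl10* UMIs were in 4 of the 5 and in 7 of the 7. The PC5 cells had from 19010 to 35467 UMIs and the PC20 cells from 23806 to 102620, at depth percentiles from 38.2 to 89.7 and from 23.6 to 96.8 of their libraries.

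**Figure D5:**
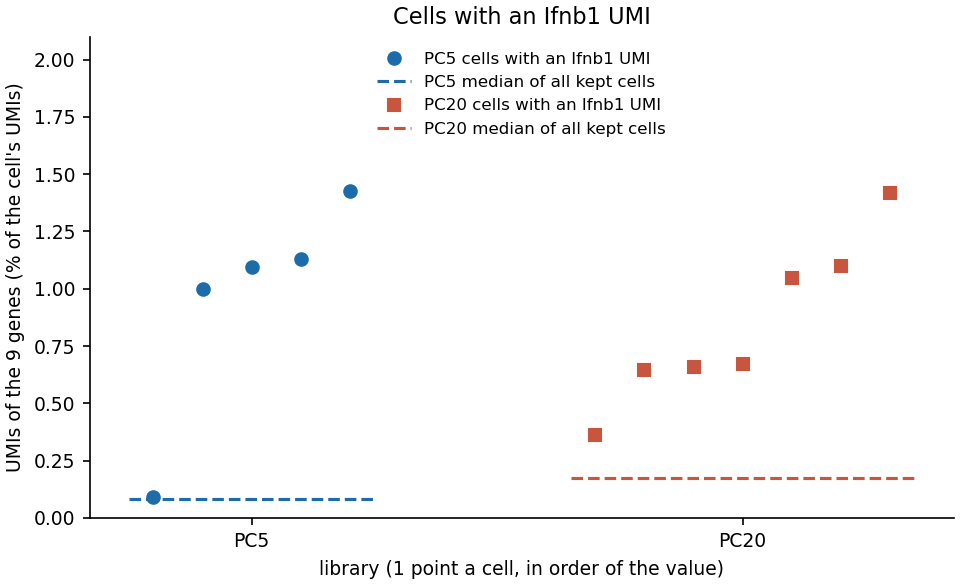
UMIs of the 9 genes as a share (%) of all UMIs of a cell, for each of the 5 PC5 (circles) and 7 PC20 (squares) cells with an *Ifnb1* UMI, in order of the value, with the median of all kept cells of the library as a dashed line. All 12 cells lie above the line of their library, 1 PC5 cell by little (0.0930% against 0.0838%).

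Genes upstream of the 9, unlike them, had medians above 0. Of 12 genes of interferon receptors and the JAK-STAT pathway, all expressed, 4 were more than 2-fold higher in PC5 and 0 in PC20, against 22.3% and 20.0% of all expressed genes, and the median log2 ratio was 0.25. *Jak1*, a kinase on both receptors, was at 83.8 and 84.9 CPM. *Stat2*, which acts for type I interferon, had 55.3 and 30.1 CPM, a log2 ratio of 0.88. *Jak2* and *Ifngr2*, of the type II receptor complex, had log2 ratios of 1.88 and 1.44, and *Ifnar2*, a chain of the type I receptor, had the lowest, at -0.40 (-0.46 to -0.34). Of 13 expressed genes that sense nucleic acid or pass on that signal, 3 were past 2-fold towards PC5, near the 22.3% of all genes, and 0 towards PC20 (20.0% of all), with a median of 0.54. *Zbp1*, a sensor of left-handed nucleic acid, had 61.2 and 9.19 CPM, or 2.74 (2.66 to 2.81) on the log2 scale. *Samhd1*, which breaks down nucleotides, had 1.49, *Eif2ak2*, the kinase PKR, had 0.93, and *Ddx58*, the RNA sensor RIG-I, had 0.54. *Mb21d1*, the DNA sensor cGAS, was higher in PC20, at 6.37 and 10.9 CPM, or -0.77 (-0.87 to -0.67) on the log2 scale.

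Other interferon-stimulated genes were divided between the cultures as well. Of 33 expressed genes of this kind, 8 were more than 2-fold higher in each direction, against 22.3% and 20.0% of all, with a median log2 ratio of 0.16. *Ifitm1*, which blocks virus entry, had 51611 UMIs (231 CPM) in PC5 against 21 UMIs (0.110 CPM) in PC20, or 11.04 (10.43 to 11.73) on the log2 scale. Its relatives *Ifitm2* and *Ifitm3* had log2 ratios of 0.20 and -0.65, at 274 and 239 CPM and at 1171 and 1834 CPM. *Oasl1*, a gene of the oligoadenylate synthetase family, had 2.95 and 107 CPM, or -5.18 (-5.29 to -5.06) on the log2 scale, and *Ifi27l2a* had 78.7 and 204 CPM, a log2 ratio of -1.37. *Oasl1* and *Ifitm1* thus differed more than any of the 9.

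Genes best known from type II interferon had the highest median of the lists of the pathway. Of 16 expressed genes of this list, mostly GTPases that attack vacuoles of microbes, 7 were more than 2-fold higher in PC5 (22.3% of all genes) and 2 in PC20 (20.0% of all), and the median log2 ratio was 0.94. *Irgm1* had 162 and 36.3 CPM, *Iigp1* 63.5 and 16.5 CPM, and *Gbp2* 43.5 and 3.36 CPM, the last a log2 ratio of 3.69 (3.58 to 3.81). *Gbp7* had 0.69. *Irf8*, a factor of myeloid cells, had 31 UMIs in PC5 against 983 in PC20, or -5.21 on the log2 scale. Of 15 expressed NF-kB targets, 5 were more than 2-fold higher in each direction, beside the same 22.3% and 20.0% of all, with a median of -0.16. *Ccl2* and *Ccl7*, chemokine genes, had log2 ratios of 5.14 and 6.36, while *Ccl5* had 4.74 and 74.6 CPM, or -3.98 (-4.07 to -3.89). *Tnfaip2* and *Vcam1*, an adhesion molecule, were at -0.16 and -0.34.

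Markers of other cells of the brain ranged from 0 UMIs to over 1000 CPM. Of 4 microglia markers, *Cd48* and *Adgre1* were at 0 UMIs, *Ptprc* had a single UMI, in PC5, and *Csf1r* had 116 and 3 UMIs. The summed level of the list was 0.525 and 0.0157 CPM. Of 4 endothelial markers, *Flt1* had 17.6 and 73.9 CPM and *Kdr* 12.8 and 0.0680 CPM, while *Pecam1* had 121 and 21 UMIs and *Cldn5* had 14 and 8. Of 3 smooth muscle markers, *Tagln* had 219 and 0.230 CPM, *Acta2* 62.8 and 49.2 CPM, and *Myh11* 46 and 13 UMIs. Fibroblast markers summed to 1302 and 101 CPM, with *Col3a1* at 1158 and 101 CPM, *Pdgfra* at 88.6 and 0.131 CPM, *Dcn* at 51.3 and 0.167 CPM, and *Lum* at 796 and 0 UMIs. Of the oligodendrocyte markers, *Mobp* had 0 UMIs in both and *Mag* had 1 and 0. Of 3 astrocyte markers, *Slc4a4* had 143 and 229 CPM, *Aldh1l1* 7.35 and 0.0262 CPM, and *Gfap* 97 and 0 UMIs. Endothelial, smooth muscle, fibroblast and astrocyte markers thus also differed between the libraries, and their part in the levels of the 9 genes was not tested.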

How the data were processed

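Single cell RNA-seq libraries of cultured PCs, 1 at passage 5 and 1 at passage 20, were made by the authors with droplets (10x Genomics 3′ chemistry) and mapped to mm10 with Cell Ranger (5.0 in the submitters' processing notes, 5.0.1 in the file headers). The deposited values are whole-number counts of UMIs per gene and called cell barcode, with no normalization by the authors. Adult and embryonic brain cells were not analysed here.

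The study's limits on cells were kept, above 1000 genes with a UMI and below 20% of UMIs from mitochondrial genes. No doublets were removed, and leaving out the 5% of cells with the most UMIs was an alternative. CPM, log2 ratios without a pseudocount, shares of cells and odds ratios (0.5 added to each cell of the 2 by 2 table, at least 10 cells with and 10 without a UMI of each gene) were computed in Python 3.11.15 with numpy 2.4.6 and scipy 1.17.1. The limit on cells without a UMI was added after the data were seen. Thinning used 10500 UMIs, near the 10th percentile of depth (to the next lower step of 500). Intervals and floors (3 counts) cover counting error only. Positions are from GENCODE M21 and promoter sequences from RefSeq, both on GRCm38. The computation was tested on simulated data.

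The 9 genes and the other gene lists were chosen with earlier results of these data known. Of each list the text names the 4 genes with the most UMIs and those with the highest and lowest log2 ratio, and of all other genes the 10 most correlated in each library. Some genes that this rule names are not reported here. Of 36 other interferon-stimulated genes listed, 34 were matched by symbol. Alternatives were other cell filters, scalings, thinning depths and detection minimums.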

Additional observations from a re-analysis of the deposited data

Results flagged for a closer look

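The difference of *Ifit1* and *Rsad2* between cells with and without cell division markers had opposite signs in the libraries. The log2 ratio of CPM in thinned cells with over cells without a *Mki67* or *Top2a* UMI was -0.60 in PC5 and 0.20 in PC20 for *Ifit1*, and -0.43 in PC5 and 0.33 in PC20 for *Rsad2*. Each value stands outside 0 by its counting interval, which treats UMIs as independent. The ratio of variance to mean over PC20 cells was 8.58 for *Ifit1* and 10.5 for *Rsad2*, so these intervals are too narrow for differences between cells. In PC20 an *Ifit1* UMI was in 34.2% of cells with and 33.1% of cells without the markers. For *Rsad2* the shares were 37.5% and 29.3%. With 1 library for each passage the difference between the libraries was not tested.

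Barcodes left out of the comparisons also held UMIs of the 9 genes. The 679 left out in PC5 held 855 such UMIs, or 925 per 1000000 against 968 in kept cells, and the 135 left out in PC20 held 250, or 1358 per 1000000 against 1992. At least 1 of these UMIs was in 399 of the 679 and in 89 of the 135. Of the genes, *Rsad2* had 9 UMIs (9.74 CPM) in the PC5 barcodes left out, against 41.8 CPM in kept cells, *Bst2* had 350 (379 CPM), against 386 CPM, and *Isg15* had 185 (200.2 CPM, 172 to 231), against 121 CPM.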

How the results depend on the processing

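Of 99 values (the log2 ratios of the 9 genes under 11 alternatives), 95 kept their direction. The exceptions were *Usp18* under 3 alternatives, whose interval includes 0 over all kept cells, and *Ifit3*, which reversed to 0.11 among cells with no *Cxcl10* UMI, a set chosen after the data were seen. Among those cells 4 genes were higher in PC5, as against 2. The median log2 ratio of the 9 moved to -0.57 with a mean over cells of UMIs scaled to 10000 a cell and to -0.73 over the cells that held neither *Mki67* nor *Top2a* UMIs. The median over all expressed genes was 0.03, and 0.05 with a library size that leaves out mitochondrial and ribosomal protein genes. Over all genes, 3023 were more than 2-fold higher in PC5 and 2707 in PC20. These were 1880 and 2011, in the reverse order, when a UMI in at least 10% of cells was asked for, and 4306 and 4078 past a fold of 1.5. Without thinning the median log2 odds ratio of the pairs was 1.21 in PC5 and 1.56 in PC20, against 0.68 and 0.48 with it, but the last rests on 28 pairs and the others on 36. Over the same 28 pairs without *Bst2*, added after the data were seen, the medians were 0.56 and 0.48 with thinning, 0.54 and 0.60 under a second draw, and 0.88 and 1.44 without thinning, with *Irf7* at 0.58 and 0.29, 0.54 and 0.36, and 0.89 and 1.37. Among cells with no *Cxcl10* UMI 26 of the 28 were above 0 in PC20, with a median of 0.35. The share of cells with 3 or more of the 9 followed depth: without thinning it was 87.4% in PC5 and 95.2% in PC20, and at 5000 UMIs a cell 48.0% and 57.2%. It was 80.2% over PC5 cells that held neither *Mki67* nor *Top2a* UMIs, 75.3% in PC5 under a second draw, and 80.2% among PC20 cells with no *Cxcl10* UMI. Thinning to 5000 UMIs left 34 of 36 pairs above 0 in PC5 and 30 of 36 in PC20. Over the 28 pairs without *Bst2* it left 27 above 0 in PC5 and all 28 in PC20, so the PC20 pairs not above 0 were pairs with *Bst2*. The cause of the other moves was not tested. No paired analysis was possible because each passage has 1 library, and for the same reason no library could be left out. Interferon genes with no UMI were not detected, within the limits given above for a count of 0.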
